A study of Mus musculus with 9 samples.

Results

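Medullary thymic epithelial cells without reporter signal (ZsG minus mTEC) were set against cortical thymic epithelial cells without reporter signal (ZsG minus cTEC), which asks how the reporter-negative epithelium of the medulla and cortex differ in gene expression. The arrays were chosen by their titles: 3 arrays were titled ZsG minus mTEC and 3 ZsG minus cTEC, so 6 of the 9 arrays of the study entered the comparison. ZsGreen (ZsG) is a green fluorescent protein. Per the labels, a bacterial artificial chromosome carried it at the ATG of Tslp, the gene of the epithelial cytokine thymic stromal lymphopoietin. The other 3 arrays of the study held ZsG plus cells. Both groups carried the C57BL/6 background, came from mice 8 to 20 weeks old and received no agent named in the labels. Reporter-negative cells are a remainder population, defined by a missing signal. The sources used here gave neither the markers and gates of the sort nor the number of animals behind an array. The cell type field reads keratinocytes for both groups, which differs from the titles, and the groups follow the titles. Each RNA sample was amplified from 5 ng before it was hybridised to an Affymetrix Mouse Genome 430 2.0 array (the platform name follows from the annotation of the probes).

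The thymus makes T cells in an order set by its epithelium. Cortical cells carry a dedicated proteasome subunit, Psmb11, and the proteases Prss16 and cathepsin L, which make the peptides on which immature thymocytes are positively selected, and they make ligands that keep thymocyte progenitors in place. Medullary cells express a great many genes that otherwise belong to single peripheral tissues, under Aire, Fezf2 and other regulators, so that thymocytes reacting against those tissues are deleted or become regulatory T cells.

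Of 18194 genes tested with limma, 415 were higher in mTEC (2.28% of all genes) and 167 were lower (0.918%) at a Benjamini-Hochberg adjusted p under 0.05, in all 582 genes or 3.20%. Throughout, a level is a group's geometric mean intensity over its 3 arrays, a difference is mTEC minus cTEC on the log2 scale with its standard error after ±, and n is 3 arrays per group. Higher and lower as verdicts refer to that threshold alone. Every count of called list members below stands beside these all-gene shares of 2.28% higher and 0.918% lower. A list with 1 call can lie close to them. The smallest difference among the 582 was 1.76 in size on the log2 scale, the median fold was 10.98 among higher and 8.09 among lower genes, and the groups overlapped in none of them. With 3 arrays a group, only large differences pass the threshold, so these sizes are not typical of all genes. In 301 of the 582 genes the dimmer group lay at or under 241, the highest reading of the PheX and DapX bacterial control probe sets. For these genes the fold rests on a dim denominator. Other control probe sets did not enter this limit, and control readings below mean those of PheX and DapX alone. Both groups were at or above the 40th percentile of gene levels, an intensity of 323, in 148 higher and 86 lower genes. This limit is on group levels, so single readings of such genes can still lie under 241. The counts of 415 higher and 167 lower genes moved strongly when an array was left out. Without mTEC replicate 1 they were 3 higher and 2 lower, and without cTEC replicate 2 they were 20 and 0. Without cTEC replicate 3 they were 252 and 45. No gene passed without mTEC replicate 2, mTEC replicate 3 or cTEC replicate 1, although limma's unadjusted p was under 0.05 for 2009, 1823 and 2053 genes higher and 1320, 1370 and 1032 lower in those fits. Among genes with several probe sets, all probe sets had the same sign in 195 of 224 called and 4630 of 8788 uncalled genes.

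Median intensity over all probe sets was 366 to 424 on the mTEC arrays and 376 to 404 on the cTEC arrays, and the ratio of 3' to 5' Gapdh probe sets, a sign of RNA and amplification quality, was 4.66 to 5.97 and 4.55 to 5.60. Pearson's r between arrays, across genes, was 0.837 to 0.850 within mTEC, 0.853 to 0.886 within cTEC and 0.769 to 0.788 between the groups. The median difference over all genes was 0.09, and 53.9% of genes had a positive difference.

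**Figure D1:**
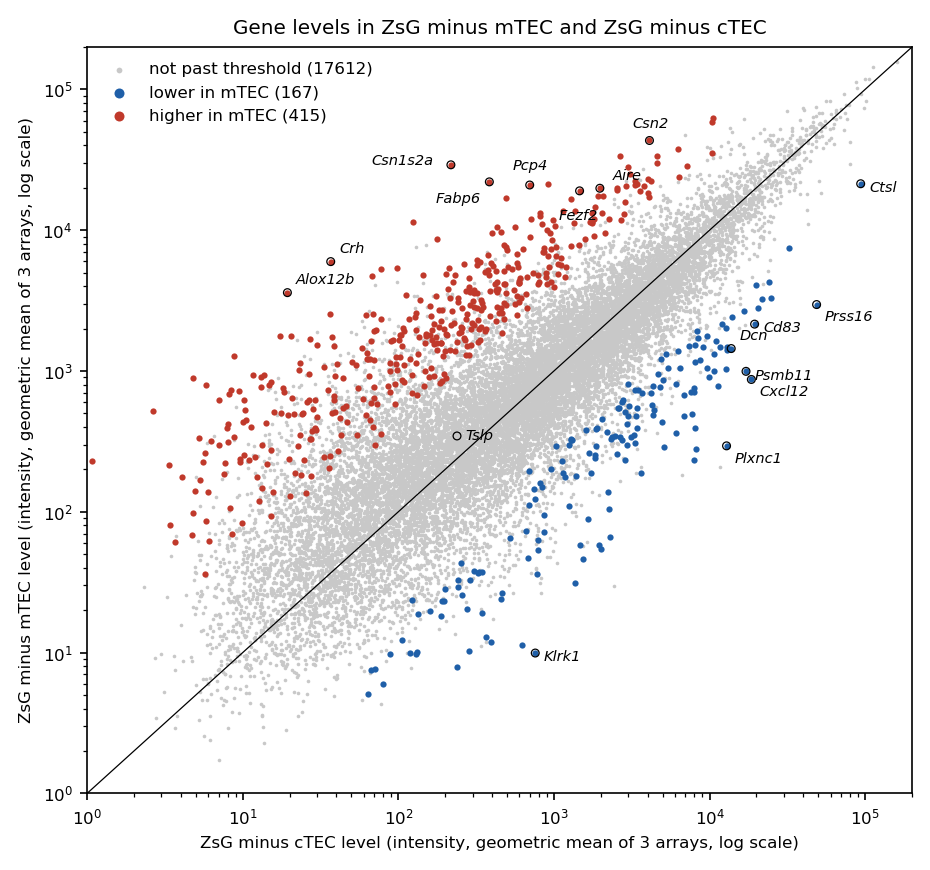
Level of each of 18194 genes in ZsG minus mTEC (vertical axis) against ZsG minus cTEC (horizontal axis), both as geometric mean intensity of 3 arrays on log axes, with the line of equality. Red points are the 415 genes higher and blue points the 167 genes lower in mTEC at an adjusted limma p under 0.05, grey points are all others, and circled genes are named. Prss16, Ctsl, Psmb11 and Cxcl12 sit far below the line, Aire, Fezf2 and Csn2 far above it, and Tslp close to it.

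Markers of other cells are given first, since several moved with the groups. Of 19 thymocyte and T cell genes, 5 were lower in mTEC and 0 higher, against 0.918% of all genes lower. All 19 differences were negative, and their median was -2.85. Summed over the list, intensity ran from 13807 to 22443 on the mTEC arrays and from 76156 to 107107 on the cTEC arrays. Cd8a, the coreceptor chain of cytotoxic lineage thymocytes, read 1168, 911 and 342 on the mTEC arrays and 8602, 6353 and 7951 on the cTEC arrays, a difference of -3.41 ± 0.54. Dntt, the terminal transferase of immature lymphocytes, read 1701, 1368 and 1205 against 21108, 9953 and 10319, a difference of -3.20 ± 0.44. Cd3d, Lat and Themis, which belong to T cell receptor signalling, differed by -3.09 ± 0.39, -3.42 ± 0.59 and -3.10 ± 0.52. The recombinase gene Rag1 missed the threshold at -2.96 ± 0.62 (limma, adjusted p = 0.0626). Every cTEC array was above every mTEC array for each of these 6 genes, and no marker of the list read 0 on any array.

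Of 20 dendritic cell and macrophage genes, 2 were lower and 0 higher in mTEC, with a median of 0.28 and summed intensity of 92954 to 108974 on the mTEC and 49719 to 121652 on the cTEC arrays, so the sums overlapped. Ptprc, the pan-leukocyte antigen CD45, read 3163, 2085 and 2100 on the mTEC arrays and 14501, 12873 and 14677 on the cTEC arrays, a difference of -2.54 ± 0.36. Flt3, a receptor of dendritic cell progenitors, read 113, 391 and 150 against 2935, 8317 and 1945, a difference of -4.27 ± 0.73. The cTEC arrays differed among themselves, with sums of 70601, 121652 and 49719. The second array was the highest of the 3 cTEC arrays for 14 of the 20 genes, against 31.2% of all genes, but the lowest for Ptprc. Itgax, the dendritic cell integrin CD11c, read 1793, 3254 and 463 on the cTEC arrays and 262, 149 and 20.8 on the mTEC arrays without passing the threshold. The lysozyme gene Lyz2 went the other way without passing, with levels of 34685 in mTEC and 13539 in cTEC.

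Of 20 fibroblast and mesenchyme genes, 4 were lower and 0 higher, against 0.918% of all genes lower. Of the differences 18 were negative, with a median of -1.62. Summed intensity was 51265 to 70680 on the mTEC and 151616 to 189449 on the cTEC arrays. Col3a1, a fibrillar collagen, differed by -3.64 ± 0.46, the proteoglycan Dcn by -3.26 ± 0.45, the collagen Col1a2 by -3.19 ± 0.59 and the matrix protein Dpt by -2.83 ± 0.54. For Col1a2, 2 of 3 probe sets had this sign. Mesothelial markers were mixed: Upk3b at -3.35 ± 0.51 and Gpm6a at -2.17 ± 0.38 were lower and Dmkn at 2.59 ± 0.40 was higher, out of 10 with a median of -1.89 and overlapping sums of 17272 to 21638 and 17275 to 26750. Dmkn is also an epidermal gene and is counted again among those below.

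Endothelial genes were near the dim end of the arrays, with sums over 12 genes of 3537 to 4257 on the mTEC and 3602 to 4186 on the cTEC arrays. The defining endothelial genes Pecam1 and Cdh5 differed by -0.39 ± 0.68 and -0.55 ± 0.84, neither past the threshold, and only Plvap was called, at 5.66 ± 0.90 from a cTEC level of 6.26. Of 10 B cell genes, with sums of 8846 to 9408 on the mTEC and 2598 to 4812 on the cTEC arrays, only Cr2 was called, higher at 2.99 ± 0.56. Of the 10 differences 8 were positive, with a median of 0.94. The 2 negative ones were Cd79a at -2.49 and Ms4a1 at -0.70, neither past the threshold. Of 7 erythroid genes, with sums of 3997 to 7128 and 359 to 1252, 5 differences were positive and 2 negative, with a median of 2.98. The membrane protein genes Slc4a1 at 4.24 ± 0.78 and Epb42 at 3.91 ± 0.49 were higher. The defining globin gene Hba-a1, at levels of 83.7 and 20.5, missed the threshold at 2.03. In bulk samples fewer cells of a type and less RNA per cell cannot be told apart, and the part of these markers in the differences reported here was not tested.

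**Figure D2:**
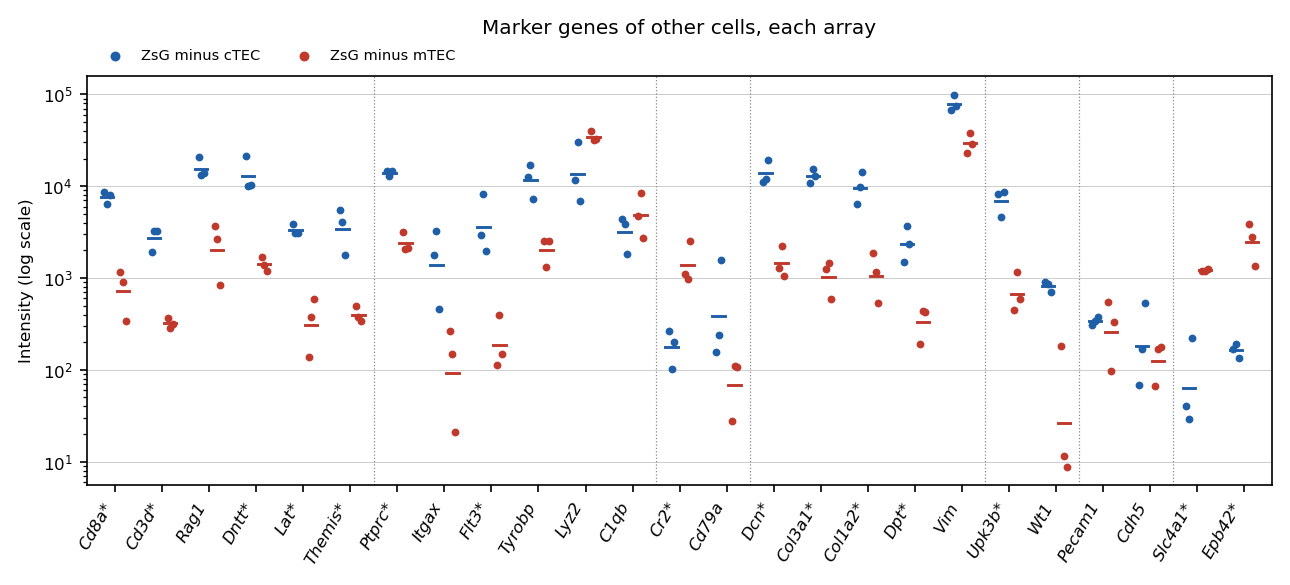
Intensity on a log axis of 25 marker genes of other cells on each of the 3 ZsG minus cTEC (blue) and 3 ZsG minus mTEC (red) arrays, with short bars for the geometric mean and dotted lines between thymocyte, dendritic cell and macrophage, B cell, fibroblast, mesothelial, endothelial and erythroid genes. An asterisk marks an adjusted limma p under 0.05. The thymocyte and fibroblast genes sit higher on all 3 cTEC arrays, while Pecam1 and Cdh5 overlap.

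Cortical identity genes lay mostly below the line of equality, though their median was nearer 0 than those of the thymocyte, fibroblast and mesothelial lists. Of 22 measured, 6 were lower in mTEC and 0 higher, 19 of 22 differences were negative and the median was -1.09, against 0.918% of all genes lower and a median over all genes of 0.09. Prss16, the thymus-specific serine protease, read 2556, 4051 and 2514 on the mTEC arrays and 49672, 41699 and 55909 on the cTEC arrays. That is a level of 2963 against 48742 and a difference of -4.04 ± 0.38 (limma, adjusted p = 0.0165). Every cTEC array was more than an order of magnitude above its highest mTEC reading. Psmb11, the catalytic subunit of the cortical thymoproteasome, read 726, 2104 and 643 on the mTEC arrays and 18505, 12244 and 22292 on the cTEC arrays, a difference of -4.11 ± 0.57. The second mTEC array was the highest and the second cTEC array the lowest for Psmb11, yet the groups stayed well apart. Ctsl, the cathepsin that trims class II invariant chain in the cortex, read 23534, 25557 and 16232 against 73279, 98351 and 113760, a difference of -2.13 ± 0.39. Medullary cells thus still gave a strong Ctsl signal, and the groups did not overlap.

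Cxcl12, the chemokine that holds CXCR4-bearing progenitors in the cortex, had the largest fall among named genes with both group levels at or above 323. It read 848, 2208 and 352 on the mTEC arrays and 21256, 15218 and 19772 on the cTEC arrays, a difference of -4.41 ± 0.70, with the same sign in 3 of 3 probe sets. Cxcl12 is also made by mesenchyme, whose markers moved the same way, and the part of those cells in the difference was not tested. Cd83, which stabilises class II molecules on cortical epithelium and also marks mature dendritic cells, read 2674, 2062 and 1807 against 17200, 23993 and 17910, a difference of -3.18 ± 0.37. Flt3 and Ptprc, the 2 called genes of the dendritic cell and macrophage list, moved with it. In that list 11 of 20 differences were positive and the median was 0.28, which turned negative when dim genes were left out. At an unadjusted limma p under 0.05, 2 of the 20 were higher and 5 lower. The median level of the list was 331 in mTEC and 1105 in cTEC. The part of dendritic cell RNA in the Cd83 difference was not tested. The aminopeptidase Enpep, known as the cortical antigen Ly51, read 891, 407 and 442 against 5397, 2444 and 3087 and was just inside the threshold at -2.66 ± 0.51.

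Other cortical genes leaned the same way without passing. Ly75, the endocytic receptor DEC-205, read 3157, 4443 and 2070 on the mTEC and 28098, 11350 and 8984 on the cTEC arrays, a difference of -2.21 ± 0.57 (limma, adjusted p = 0.0967). Ccl25, a chemokine for thymocyte progenitors, had levels of 42001 and 80372 and differed by -0.94 ± 0.35, with the same sign in 1 of 2 probe sets. Tbata, a thymic regulator of epithelial growth, differed by -1.19 ± 0.36. The Notch ligand Dll4 at -0.34 ± 0.47, the cytokine Il7 at -0.75 ± 0.52 and the progenitor growth factor Kitl at -1.04 ± 0.55 did not pass either. Foxn1, the master regulator of thymic epithelium, went the other way, with levels of 2838 in mTEC and 1523 in cTEC and a difference of 0.90 ± 0.36, not past the threshold and carried by 1 of 2 probe sets. The simple epithelial keratins Krt8 and Krt18 differed by 0.27 ± 0.34 and -0.31 ± 0.33.

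Medullary regulators gave the opposite picture for a few defining genes and little for the rest. Of 20 measured, 4 were higher in mTEC and 1 lower, with a median of 0.59. Aire, the autoimmune regulator, read 18140, 17983 and 23992 on the mTEC arrays and 1236, 2419 and 2570 on the cTEC arrays. Its level was 19854 against 1973, a difference of 3.33 ± 0.43 (limma, adjusted p = 0.0238). Fezf2, a transcription factor that drives a further set of peripheral genes in the medulla, read 17496, 23680 and 16623 against 756, 1950 and 2116, a difference of 3.70 ± 0.51. For both genes the first cTEC array was the lowest, and no array of a group reached the other. Hdc, the histidine decarboxylase of Aire-positive cells, read 10716, 10609 and 14676 against 589, 1378 and 1174, a difference of 3.59 ± 0.45. H2-Oa, which restrains peptide loading of class II molecules, read 15882, 16012 and 24456 against 3183, 4708 and 4294, a difference of 2.20 ± 0.38. The third mTEC array was the highest for Aire, Hdc and H2-Oa.

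The exception was Ccl17, a chemokine of medullary epithelium and of dendritic cells, which read 2512, 1439 and 1187 on the mTEC arrays and 8436, 17909 and 8669 on the cTEC arrays, a difference of -2.75 ± 0.50. Ccl22, the other ligand of the same receptor CCR4, read 11381, 15183 and 7812 against 39165, 57997 and 34405 and missed the threshold at -1.95 ± 0.43 (limma, adjusted p = 0.0662). Both chemokines were highest on the second cTEC array, where the dendritic cell and macrophage list had its highest sum (121652) and Ptprc its lowest cTEC reading. The median difference of that list was 0.28, and it turned negative when dim genes were left out. The part of dendritic cell RNA in these values was not tested. Spib at 1.81 ± 0.42, Nos2 at 3.09 ± 0.74, Cd80 at 0.83 ± 0.38, the protease Ctss at -0.03 ± 0.39 and the receptor Cd40 at -0.21 ± 0.32 did not pass.

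Genes of medullary epithelium in general showed no call: 0 of 13 were higher and 0 lower by limma, with 4 higher and 1 lower at an unadjusted p under 0.05 and a median of 0.32. Epcam, an epithelial adhesion molecule, read 33643, 33771 and 32427 on the mTEC arrays and 12803, 9084 and 13922 on the cTEC arrays. Its groups did not overlap, but the difference missed the threshold (limma, adjusted p = 0.0789). Krt14, a basal keratin, differed by 1.69 ± 0.37 and the tight junction gene Cldn4, a marker of Aire-lineage cells, by 3.53 ± 0.69, with adjusted p values from limma of 0.0665 and 0.0532. The basal keratin Krt5 had nearly equal levels of 13137 and 13398.

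**Figure D3:**
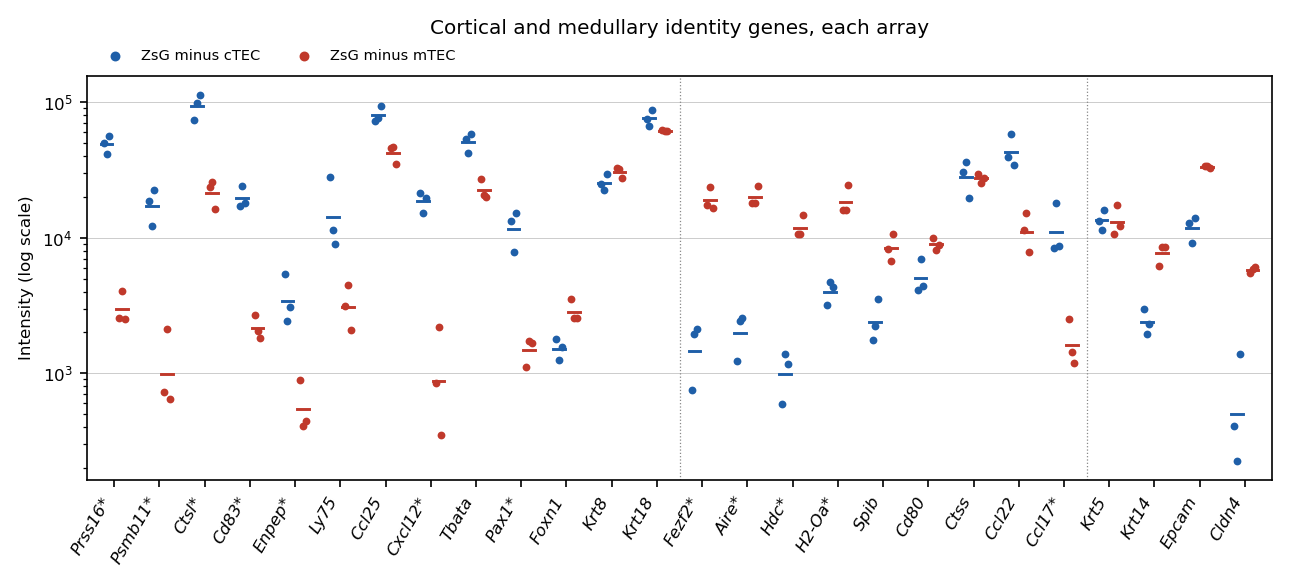
Intensity on a log axis of 26 genes on each of the 3 ZsG minus cTEC (blue) and 3 ZsG minus mTEC (red) arrays, with short bars for the geometric mean, in the order cortical, medullary and general epithelial genes between dotted lines. An asterisk marks an adjusted limma p under 0.05. Prss16, Psmb11, Ctsl, Cd83 and Cxcl12 are higher on every cTEC array, Fezf2, Aire, Hdc and H2-Oa on every mTEC array, and Krt8 and Krt5 overlap.

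Factors that work with Aire gave 2 calls. Of 24 genes of the Aire complex and chromatin, 2 were higher and 0 lower, against 2.28% of all genes higher. Of the 2, 1 was Aire itself, and the median was -0.22. The other was Sirt1, the deacetylase that acts on Aire, which read 8866, 8390 and 8826 on the mTEC arrays and 1572, 1567 and 1602 on the cTEC arrays. The difference of 2.46 ± 0.32 had an adjusted limma p of 0.024, and both groups were very tight. The DNA methyltransferases Dnmt3a and Dnmt1 differed by 0.43 ± 0.35 and -0.59 ± 0.44, the coactivator Crebbp by -0.25 ± 0.41 and the helicase Chd4 by -0.37 ± 0.70, none past the threshold.

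Genes of peripheral tissues were compared list by list. Among antigens reported to need Aire, 7 of 12 were higher and 0 lower (12 of 12 positive, median 3.02). Among antigens reported to need Fezf2, 4 of 11 were higher and 0 lower (11 of 11 positive, median 2.51). Both shares, and those of the tissue lists below, stand against 2.28% of all genes higher. The largest difference of the Aire list was in Mucl2, a salivary and lacrimal mucin-like protein, which read 7903, 11714 and 6897 on the mTEC arrays and 215, 154 and 168 on the cTEC arrays, or 5.60 ± 0.38 (limma, adjusted p = 0.0123). S100a8, an antimicrobial calcium-binding protein, read 16809, 17093 and 16393 against 767, 1830 and 1517. Reg3g, an intestinal antimicrobial lectin, read 37592, 34620 and 28559 against 4877, 3286 and 6089, a difference of 2.86 ± 0.39. Among the called genes of the Fezf2 list, the milk protein Csn2 had the largest difference; it read 42842, 40368 and 47123 against 2928, 2657 and 8931, a difference of 3.40 ± 0.55. The suprabasal keratin Krt10 at 2.70 ± 0.42, the inner ear protein Coch at 2.75 ± 0.50 and the secretory granule gene Resp18 at 2.47 ± 0.34 were the others. Fabp9, a testis lipid carrier of the same list, had levels of 47811 and 6984 and just missed the threshold at 2.78 ± 0.61. The cTEC level was above the highest control reading of 241 for 6 of the 12 Aire and 9 of the 11 Fezf2 genes, so for these the cTEC group held signal too. That signal was uneven. The third cTEC array was the highest of the 3 for 8 of the 12 Aire and 9 of the 11 Fezf2 genes, against 36.4% of all genes. The source of the signal in the cTEC samples was not tested.

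Epidermal differentiation was the list with the most calls. Of 35 genes, 17 were higher and 0 lower, against 2.28% of all genes higher. Of the differences 34 of 35 were positive, and the median was 2.82. Alox12b, the lipoxygenase of the skin barrier, read 2313, 5403 and 3736 on the mTEC arrays and 30.2, 17.1 and 14.1 on the cTEC arrays, a difference of 7.54 ± 0.50. The cTEC readings lie within the range of the control probe sets, so the size of that fold has no firm lower group. Dsg1a, the desmoglein of outer epidermal layers, read 12385, 8729 and 8609 against 657, 291 and 492 (4.42 ± 0.44), and its probe set may also bind transcripts of the near-identical neighbour Dsg1b. Krtdap, a keratinocyte differentiation peptide, read 16141, 14951 and 9789 against 702, 765 and 999 (4.03 ± 0.39). Flg, the filaggrin of the cornified layer, read 1465, 2684 and 1858 against 106, 138 and 154 (3.89 ± 0.40). The epidermal keratin Krt77 differed by 4.37 ± 0.74 and the transglutaminase Tgm3 by 3.89 ± 0.71. Desmoplakin, encoded by Dsp and needed in every desmosome, did not pass at 0.19 ± 0.35, with levels of 47299 and 41401.

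Milk, salivary and lacrimal genes had 6 higher and 0 lower of 19, with a median of 3.15. The caseins stood out: Csn1s2a read 57100, 25564 and 16921 on the mTEC arrays and 111, 674 and 138 on the cTEC arrays, a difference of 7.06 ± 0.83. Of 5 probe sets for Csn1s2a, 3 had this sign. Csn3 differed by 5.70 ± 0.62, Csn1s1 by 3.98 ± 0.73 and the mucin-like gene Mucl1 by 4.04 ± 0.50. In the gene order of RefSeq, Sult1e1, Csn1s1, Csn2 and Csn1s2a were consecutive measured genes on chromosome 5, and all 4 were higher.

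Of 25 genes of the exocrine pancreas and islets, 8 were higher and 0 lower (median 2.53). Gcg, the glucagon precursor, read 1685, 1689 and 1832 on the mTEC arrays and 75.9, 36 and 18.9 on the cTEC arrays, a difference of 5.54 ± 0.56. The gut peptide genes Pyy at 4.96 ± 0.89, Nts at 4.58 ± 0.54 and Gip at 3.33 ± 0.60 and the digestive enzyme gene Ctrb1 at 3.91 ± 0.53 were also higher. Spink1, a pancreatic trypsin inhibitor, read 20634, 17571 and 14510 against 1926, 1730 and 2109. The hormones Sst and Ppy missed the threshold at 1.90 ± 0.51 and 2.15 ± 0.48.

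Of 30 intestinal genes, 12 were higher and 0 lower (median 2.60). Fabp6, the ileal bile acid carrier, had the largest rise among named genes with both group levels at or above 323. It read 21107, 24956 and 20320 on the mTEC arrays and 385, 696 and 212 on the cTEC arrays, a difference of 5.84 ± 0.51 (limma, adjusted p = 0.0165). Fabp2, the fatty acid carrier of enterocytes, read 10323, 7597 and 5722 against 598, 401 and 490 (3.97 ± 0.40). Zg16, a goblet cell lectin, read 3506, 12038 and 4581 against 199, 242 and 388 (4.44 ± 0.58), with the second mTEC array well above the other two. The trefoil peptide Tff3 differed by 3.81 ± 0.64, the annexin Anxa13 by 3.61 ± 0.56 and the lectin Reg3b by 3.34 ± 0.44. Lypd8 and Muc13, also of the gut lining, did not pass at 1.82 ± 0.43 and 1.33 ± 0.45.

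Of 23 liver plasma protein genes, 4 were higher and 0 lower (median 2.70): the apolipoproteins Apoa1 at 2.99 ± 0.40, Apoa2 at 2.92 ± 0.45 and Apoh at 2.70 ± 0.47, and the fibrinogen chain Fgg at 3.01 ± 0.42. Of 27 neuronal and neuroendocrine genes, 5 were higher and 0 lower (median 1.51). Pcp4, a calmodulin regulator of Purkinje cells, had close replicates, with readings of 20914, 21365 and 20530 on the mTEC arrays and 918, 496 and 749 on the cTEC arrays, a difference of 4.90 ± 0.38. Gad1, which makes the transmitter GABA, read 812, 641 and 2978 against 44.4, 47 and 61.9, so 1 mTEC array was far above the others. The synaptic vesicle gene Syt1 differed by 2.71 ± 0.42 and the granule chaperone Scg5 by 4.17 ± 0.50. Chromogranin A, encoded by Chga, leaned the other way at -0.92 ± 0.38 without passing.

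Other tissue lists had 0 to 3 higher genes each, against 2.28% of all genes higher and 0.918% lower. Of 22 germ cell genes, 3 were higher, namely Omt2b of the oocyte at 6.32 ± 0.81, Crisp2 of the sperm at 4.98 ± 0.68 and the egg coat gene Zp1 at 2.70 ± 0.49. The testis enzyme gene Pgk2 was lower at -3.71 ± 0.44, with a cTEC level of 132 that lies within the control range. None of 25 skeletal and heart muscle genes passed in limma, where 6 were higher and 1 lower at an unadjusted p under 0.05 (median 0.84). Of 22 airway and mucosal genes, Dmbt1 alone was higher (3.74 ± 0.69), and Wfdc2, Bpifa1 and Ltf differed by 0.30, -0.02 and -0.27.

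Genes of the specialised medullary cell types that mimic peripheral lineages were compared too, against 2.28% of all genes higher and 0.918% lower. Microfold cell genes, named for the antigen-sampling cells of the gut, had 3 higher and 0 lower of 15, all 15 differences positive and a median of 1.33. Gp2, a receptor for bacteria on microfold cells, read 5531, 6104 and 4879 on the mTEC arrays and 363, 518 and 1090 on the cTEC arrays, a difference of 3.22 ± 0.50. Ccl20, the chemokine that draws CCR6-bearing cells, differed by 3.15 ± 0.39. Tnfrsf11b, the decoy receptor osteoprotegerin, read 5167, 8620 and 11083 against 1361, 1234 and 1828 (2.44 ± 0.43). Tuft cell genes had 0 higher and 0 lower of 20 by limma, with 3 higher and 0 lower at an unadjusted p under 0.05 and a median of 0.55. Trpm5, their cation channel, read 3801, 3721 and 8079 on the mTEC arrays and 2385, 1982 and 8579 on the cTEC arrays, so the groups overlapped and the third array of each was the highest. Motile cilia genes had 0 of 19 past the threshold in limma, 1 higher and 0 lower at an unadjusted p under 0.05, and a median of 0.61.

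**Figure D4:**
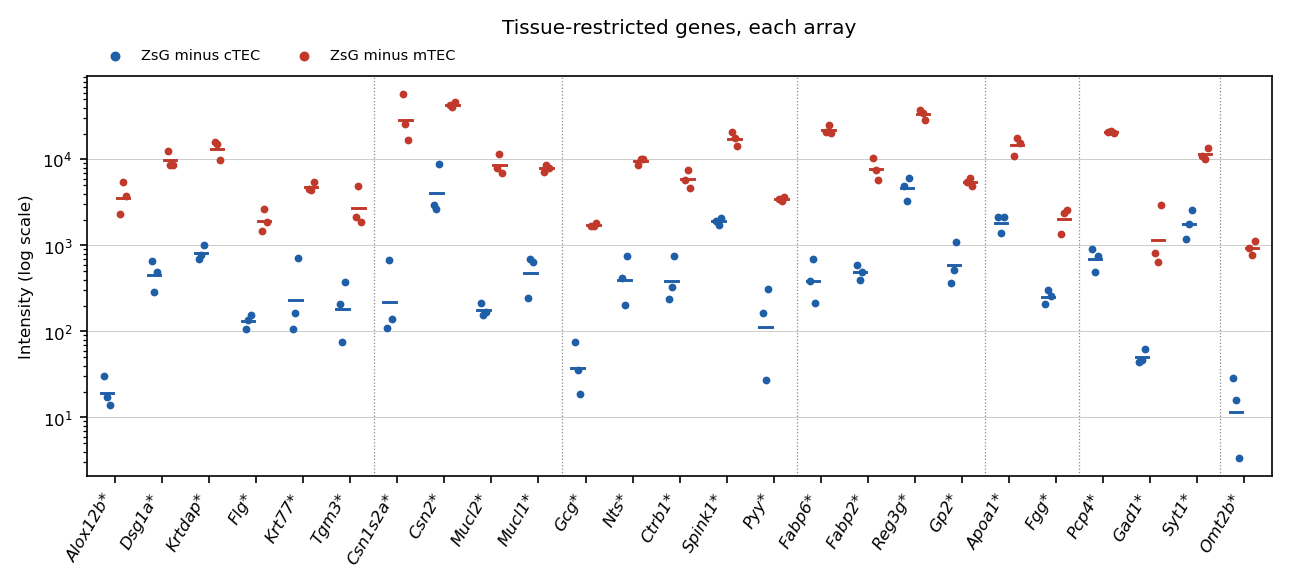
Intensity on a log axis of 25 tissue-restricted genes on each of the 3 ZsG minus cTEC (blue) and 3 ZsG minus mTEC (red) arrays, with short bars for the geometric mean and dotted lines between epidermal, milk and glandular, pancreatic, intestinal, liver, neuronal and germ cell genes. The asterisk marks an adjusted limma p under 0.05, which all 25 had because only such genes were drawn. The red points lie above the blue points for each gene, and the blue levels are lowest for Omt2b and Alox12b (19.4) and highest for Reg3g (4604) and Csn2 (4111).

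Promoters of 6 genes are shown to make visible the motifs that are counted next. Each sequence is the 250 bases before the RefSeq start in GRCm38.p6, written 5′ to 3′ on the strand of the gene, and capitals mark TATAAA or GGGCGG on either strand. Krtdap (chr7:30787655-30787904, plus strand), Reg3g (chr6:78468875-78469124, minus strand) and Aire (chr10:78043611-78043860, minus strand) are higher in mTEC and hold TATAAA with its first base 30, 27 and 29 bases before the start; Reg3g holds another on the opposite strand. Fezf2 (chr14:12345866-12346115, minus strand) is higher and holds 1 GGGCGG and no TATAAA. Cxcl12 (chr6:117168285-117168534, plus strand), with 5 GGGCGG, and Psmb11 (chr14:54625060-54625309, plus strand), with neither motif, are lower.
Krtdap: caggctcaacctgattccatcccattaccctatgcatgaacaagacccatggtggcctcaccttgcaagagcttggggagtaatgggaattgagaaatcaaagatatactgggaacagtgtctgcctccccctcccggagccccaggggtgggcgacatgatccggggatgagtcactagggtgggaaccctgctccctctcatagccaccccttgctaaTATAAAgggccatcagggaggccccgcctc
Reg3g: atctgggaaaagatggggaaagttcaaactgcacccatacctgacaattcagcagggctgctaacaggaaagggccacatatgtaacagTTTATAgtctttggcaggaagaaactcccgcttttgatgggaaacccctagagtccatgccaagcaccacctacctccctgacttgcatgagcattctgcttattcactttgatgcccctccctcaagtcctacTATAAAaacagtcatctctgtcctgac
Aire: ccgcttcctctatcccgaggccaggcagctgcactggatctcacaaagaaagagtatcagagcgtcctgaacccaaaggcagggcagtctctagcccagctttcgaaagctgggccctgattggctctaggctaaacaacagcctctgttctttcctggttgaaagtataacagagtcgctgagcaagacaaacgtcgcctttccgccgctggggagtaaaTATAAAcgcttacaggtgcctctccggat
Fezf2: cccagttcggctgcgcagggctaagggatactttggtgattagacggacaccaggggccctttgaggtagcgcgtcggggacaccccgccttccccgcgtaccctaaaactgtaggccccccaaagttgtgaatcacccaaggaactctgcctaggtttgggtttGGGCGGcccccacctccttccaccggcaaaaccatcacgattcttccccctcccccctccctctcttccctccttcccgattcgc
Cxcl12: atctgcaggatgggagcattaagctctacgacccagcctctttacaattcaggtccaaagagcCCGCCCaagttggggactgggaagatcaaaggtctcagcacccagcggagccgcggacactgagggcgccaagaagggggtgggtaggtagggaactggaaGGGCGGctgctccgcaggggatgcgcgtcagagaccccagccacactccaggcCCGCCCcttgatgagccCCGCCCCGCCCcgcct
Psmb11: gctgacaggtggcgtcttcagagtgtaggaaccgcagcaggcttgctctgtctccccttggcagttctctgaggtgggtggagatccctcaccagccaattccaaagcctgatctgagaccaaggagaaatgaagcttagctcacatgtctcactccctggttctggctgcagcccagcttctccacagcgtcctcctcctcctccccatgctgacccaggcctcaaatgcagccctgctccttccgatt

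Windows of 300 bases, from 250 before to 50 after the start, were matched by symbol for 14453 of the 18194 genes, among them 308 of 415 higher and 121 of 167 lower genes. TATAAA, searched on both strands, was in 25.6% of the windows of higher genes (79 of 308), in 17 of 121 of those of lower genes and in 9.9% of all. With its first base 20 to 41 bases before the start on the gene's strand, it was in 11.7% of higher, 1.7% of lower and 2.5% of all windows. GGGCGG was in 32.5% of higher, 53.7% of lower and 54.0% of all windows, while CCAAT was in 38.0%, 38.0% and 38.2%. Higher genes had a median of 5 CG dinucleotides in the window, lower genes 13 and all genes 17, so the promoters of the higher genes held fewer of them. These shares are descriptions of the letters, with no test.

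Chemokines and thymocyte support factors split both ways. Of 18, the higher 2 were Cxcl9, a chemokine for CXCR3-bearing T cells, and Ccl20, and the lower 2 were Cxcl12 and Ccl17 (median -0.68). Cxcl9 read 8979, 11417 and 13361 on the mTEC arrays and 1389, 1106 and 378 on the cTEC arrays, a difference of 3.73 ± 0.57. The related interferon-induced chemokine Cxcl10 had levels of 26361 and 18085 and differed by 0.54 ± 0.34, and Ccl5 by -1.05 ± 0.38, neither past the threshold.

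Tslp, the gene that carries the reporter in the transgene, was dim in both groups. It read 244, 472 and 359 on the mTEC arrays and 264, 88.8 and 576 on the cTEC arrays, so the groups overlapped. The levels of 346 and 238 differed by 0.54 ± 0.73, with a 95% confidence interval of -1.23 to 2.30 (limma, adjusted p = 0.736).

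Genes of thymus and parathyroid organogenesis had 2 lower and 0 higher of 15 (median -0.58). Pax1, a transcription factor of the pharyngeal pouch, read 1108, 1741 and 1670 on the mTEC arrays and 13176, 7811 and 15232 on the cTEC arrays, a difference of -2.98 ± 0.43. Pth, the parathyroid hormone gene, read 639, 1565 and 1714 against 6886, 9049 and 10290, a difference of -2.85 ± 0.50. The pouch regulators Pax9 and Eya1 did not pass at 0.12 ± 0.39 and -0.18 ± 0.45, and Hoxa3 did not pass at -1.76 ± 0.57.

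Signalling lists had 1 or 2 calls each, against 2.28% of all genes higher and 0.918% lower. In the Notch pathway 1 of 22 genes was lower, the target Hey1, at 2391, 2151 and 1394 on the mTEC and 9225, 7003 and 8948 on the cTEC arrays, a difference of -2.11 ± 0.38. The receptor Notch2 and the ligand Jag1 differed by 0.40 ± 0.34 and -0.03 ± 0.33. In the Wnt and Bmp pathways 1 of 36 was higher, the ligand Bmp2, which read 2626, 2047 and 1843 against 307, 180 and 86.7 (3.67 ± 0.54). Bmp4, its relative and a member of the cortical list, read 29.4, 89.1 and 12.2 against 882, 196 and 352 and missed the threshold at -3.63 ± 0.89 (limma, adjusted p = 0.0858). In the TNF receptor and NF-kappaB list, Tnfrsf11b was higher and Tnfrsf1b, the second TNF receptor, was lower, at 4453, 3167 and 4789 against 18104, 28825 and 15202 (-2.29 ± 0.41). Tnfrsf1b is also expressed by leukocytes. Its highest reading was on the second cTEC array, where the dendritic cell and macrophage list had its highest sum (121652) but Ptprc its lowest cTEC reading. The part of leukocyte RNA was not tested. Nfkbia and Icam1, targets of the pathway, differed by 0.43 and 0.29 without passing.

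Antigen presentation lists had 0 to 2 calls each, against 2.28% of all genes higher and 0.918% lower. Of 20 class II genes, H2-Oa was higher and Ctsl lower (median 0.39). The class II chains H2-Aa and H2-Ab1 and the invariant chain Cd74 were bright in both groups, at levels of 82846 and 59446, 64528 and 48632, and 113630 and 87710, and differed by 0.48 ± 0.32, 0.41 ± 0.34 and 0.37 ± 0.33. Of 22 proteasome and class I genes, Psmb11 alone was called (median 0.18), and B2m and H2-K1 differed by 0.16 ± 0.35 and 0.15 ± 0.34. Costimulatory and checkpoint ligands had 0 of 17 past the threshold in limma, with 1 higher and 3 lower at an unadjusted p under 0.05.

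Among junction genes, the tricellular junction protein gene Marveld2 was higher at 2.42 ± 0.40 and the claudin Cldn15 lower at -2.01 ± 0.38, out of 22 (median 0.98). In the desmosome and hemidesmosome list of 20, Dsg1a was higher and Lamb3, a chain of laminin-332 in the epithelial basement membrane, was lower, at 858, 745 and 612 on the mTEC and 3606, 2575 and 4533 on the cTEC arrays (-2.25 ± 0.39). Of 23 keratins, 4 were higher and 0 lower (median 2.06): Krt77, Krt80 at 3.18 ± 0.61, Krt10 and Krt16, which read 3913, 4314 and 5540 on the mTEC and 169, 162 and 836 on the cTEC arrays. These are keratins of differentiating or stressed stratified epithelium, whereas Krt5, Krt8 and Krt18 did not pass.

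Of 32 epithelial transcription factors, 4 were higher and 0 lower, and 26 of 32 differences were positive. Tfap2c, a factor of surface ectoderm, read 15004, 8684 and 15415 on the mTEC arrays and 872, 499 and 1249 on the cTEC arrays, a difference of 3.95 ± 0.49. Cdx1, which sets intestinal identity, differed by 3.24 ± 0.59, Foxa2, of gut and lung endoderm, by 3.24 ± 0.51 from a cTEC level of 24.7, and Zfp750, which drives epidermal differentiation, by 2.20 ± 0.40. The stratified epithelial factors Trp63 and Klf4 did not pass at -0.32 ± 0.38 and -0.39 ± 0.36.

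Lists for general cell state held 0 to 2 calls each, against 2.28% of all genes higher and 0.918% lower. Of 30 cell cycle genes, Ccnd2 was higher, at 39154, 36085 and 31254 on the mTEC arrays and 10303, 10921 and 10059 on the cTEC arrays, a difference of 1.76 ± 0.33 with the same sign in 7 of 7 probe sets. The proliferation genes Mki67 and Pcna differed by -0.54 ± 0.37 and -0.11 ± 0.34. Of 28 autophagy genes, Calcoco2, a receptor for cargo, was higher at 3.51 ± 0.55, and Lamp1 and Map1lc3b differed by -0.44 and -0.08 without passing. Of 24 interferon-stimulated genes, the GTPases Gbp2 and Mx1 were lower, at -3.02 ± 0.36 and -2.91 ± 0.49, while Ifit1 and Oasl2 differed by 0.32 ± 0.45 and 0.30 ± 0.46. Immediate early and heat shock genes, which report stress of cell isolation, had 0 of 24 past the threshold in limma, 1 higher and 3 lower at an unadjusted p under 0.05, and a median of -0.03.

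**Figure D5:**
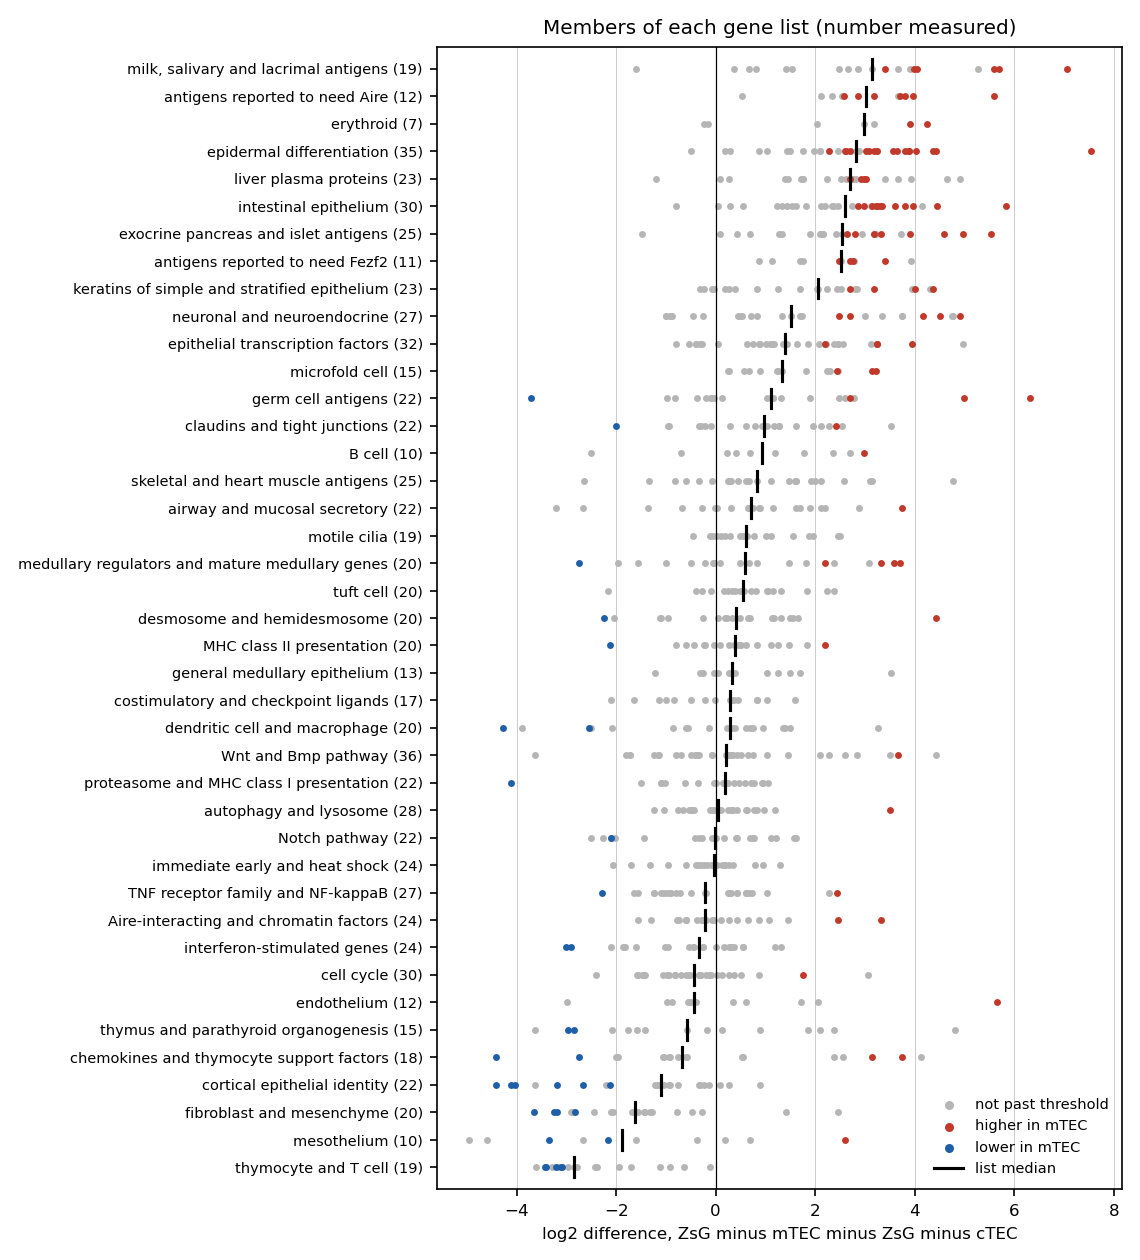
Log2 difference, ZsG minus mTEC minus ZsG minus cTEC, of every measured member of 41 gene lists (1 point per gene, number measured in brackets), with a black bar at the median of each list and lists sorted by it. Red and blue points are members higher and lower in mTEC at an adjusted limma p under 0.05. Lists of epidermal, milk, intestinal, pancreatic, liver and erythroid genes and of antigens reported to need Aire have medians of 2.53 to 3.15. The immediate early and autophagy lists lie near 0, and the cortical, fibroblast, mesothelial and thymocyte lists lie below -1.

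The largest rises beyond the lists, among genes with both group levels at or above 323, included secreted and surface proteins of several tissues. Single cTEC readings of Psors1c2, Igf2 and Piwil4 still lay under 241. Psors1c2, an epidermal gene, read 17148, 15149 and 18461 on the mTEC arrays and 683, 112 and 1553 on the cTEC arrays, a difference of 5.10 ± 0.95. Psca, a prostate and stomach surface antigen, read 13535, 8128 and 10520 against 537, 518 and 293 (4.60 ± 0.43). Cadps, which primes dense granules for release, differed by 4.23 ± 0.41, the growth factor Igf2 by 4.15 ± 0.69, the germline PIWI protein Piwil4 by 4.15 ± 0.68 and the crypt cell glycoprotein Olfm4 by 4.06 ± 0.44. Cadps and Fezf2 are consecutive measured genes on chromosome 14. With no limit on the dimmer group, the largest were the connexin Gje1, the ribonuclease Rnase2a, the sulfotransferase Sult1e1, the stress hormone Crh, the eosinophil protein Prg3 and the seminal protein Svs4, with differences of 7.09 to 7.74 from cTEC levels of 1.08 to 36.8. Crh read 3992, 5988 and 8954 against 34.6, 45.3 and 31.8. All cTEC levels of these genes were under the highest control reading. For Gje1 the mTEC level was under that reading as well, so its fold, the largest of all, is not firm on either side.

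The genes higher in mTEC with the highest intensities were Wfdc18, the lipid carrier Fabp4, Csn2, the acute phase protein Saa3, Ccnd2, the peptide Calcb, Reg3g and Skint10, which belongs to a family that selects epidermal T cells. Wfdc18 read 63218, 64990 and 59672 on the mTEC arrays and 8055, 8666 and 16714 on the cTEC arrays (2.57 ± 0.42). Calcb, a calcitonin gene-related peptide, read 33434, 33719 and 33892 against 1963, 3126 and 3071 (3.66 ± 0.36). For Calcb the 3 mTEC readings were nearly equal.

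The largest falls beyond the cortical genes, among genes with both group levels at or above 323, included the following. Itga4, an integrin of lymphocytes and mesenchyme, read 160, 935 and 413 on the mTEC arrays and 9498, 12452 and 4404 on the cTEC arrays, a difference of -4.35 ± 0.76. Il1b, an inflammatory cytokine of myeloid cells, read 353, 279 and 1224 against 9207, 10814 and 4631 (-3.97 ± 0.68). Sla and Cytip, adaptors of leukocytes, differed by -3.83 ± 0.38 and -3.42 ± 0.60. Ptprc, the pan-leukocyte gene, and 5 thymocyte genes moved with these, and their part was not tested. The intermediate filament gene Synm differed by -3.84 ± 0.38, Anxa3 by -3.49 ± 0.49, Rapgef3, a target of cyclic AMP, by -3.45 ± 0.59, and the adenylyl cyclase Adcy6, which makes it, by -3.39 ± 0.48. The collagen hydroxylase P4ha3 differed by -3.52 ± 0.47, beside the collagens above. For Ankrd44, at -4.06 ± 0.73, 3 of 4 probe sets had this sign.

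With no limit on the dimmer group, the largest falls were in Klrk1, a receptor of natural killer and T cells, at -6.26 ± 0.74, Cdk20 at -5.79 ± 0.45, the prostacyclin synthase Ptgis at -5.46 ± 0.53 and Plxnc1, a semaphorin receptor, at -5.45 ± 0.57. Plxnc1 read 154, 456 and 361 on the mTEC arrays and 11439, 20670 and 8992 on the cTEC arrays, with the same sign in 6 of 6 probe sets. Arhgap45, St8sia4, Efemp1 and Abcg3 followed at -5.12 to -5.06. Apart from Plxnc1, with an mTEC level of 294, the mTEC levels of these genes ran from 9.93 to 232. Those levels were under the highest control reading of 241, so these folds rest on a dim group. Among lower genes of high intensity, Ccr7, the receptor that guides mature thymocytes and dendritic cells, read 2814, 2818 and 4449 against 20331, 37505 and 19630 (-2.91 ± 0.44). Rgs1, a brake on chemokine receptors in lymphocytes, differed by -2.86 ± 0.41, the serine synthesis enzyme Psat1 by -2.75 ± 0.45, Isg20 by -2.50 ± 0.42 and the RNA decay factor Zfp36l1 by -2.12 ± 0.35. Ccr7 was highest on the second cTEC array. That array was the highest of the 3 for 14 of 20 dendritic cell and macrophage genes and 3 of 19 thymocyte genes, against 31.2% of all genes. Ptprc had its lowest cTEC reading there. The part of leukocyte RNA was not tested.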

How the data were processed

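RNA of 3 ZsG minus mTEC and 3 ZsG minus cTEC samples was compared. The authors' deposited intensities were on a linear scale, for 45101 probe sets per array; for their software and settings, the sources used here gave nothing. On every array the 2% trimmed mean came to 1250, a global scaling that can leave medians unequal. Detection calls were not used here. The number of arrays limits the precision. Whether replicates are separate animals is not stated in the labels; the p-values reflect variation among these 6 samples alone, and part of it may be technical.

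The log2 of each deposited intensity was used, with nothing added. Of the probe sets, 34958 had 1 symbol, 932 several and 9211 none in the annotation table; of the first, 34754 had a gene identifier in RefSeq's table for GRCm38.p6. Only probe sets with 1 symbol were used, and each gene was represented by its brightest probe set on average over the 6 arrays. Groups were compared with limma 3.58.1 (lmFit and eBayes) in R 4.3.3, on the 6 arrays alone, two-sided, with 4 residual and 2.36 prior degrees of freedom and Benjamini-Hochberg adjustment over 18194 genes, threshold 0.05.

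The comparison and the 41 gene lists were chosen with earlier results of these data known. The lists hold 832 distinct genes, of which 776 were measured, 3 through an older symbol; some genes are in several lists. Genes named are Tslp, Aire, Fezf2, Prss16 and Psmb11; the 15 largest calls each way with both groups at or above the 40th percentile and the 8 largest with no such limit; the 8 calls of highest intensity each way; and per list up to 6 called members each way and 4 of the brightest uncalled, but any member of the identity and marker lists. Genes of the closing section that this rule does not cover were chosen after their values were seen. The promoters shown were chosen likewise. Unnamed clones, receptor and small RNA genes were passed over.

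The fit was tested on simulated data, with 50 genes changed at each size. For changes of 2, 3, 4 and 5 on the log2 scale it recovered 6%, 32%, 70% and 66%, and it called 3 unchanged genes. In that setting most changes of 2 or 3 were missed, so a gene not past the threshold is not shown to be equal. Promoter sequences are RefSeq's. Alternatives are in the closing section. Figures were drawn with matplotlib 3.10.9.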

Additional observations from a re-analysis of the deposited data

How the results depend on the processing

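All alternatives were planned. Against 415 higher and 167 lower genes, the counts were 77 and 13 with all 9 arrays in the fit, 909 and 407 with log2(value + 50), 707 and 444 of 10916 genes after leaving out those under the 40th percentile, and 1119 and 625 with an intensity trend in the prior. Leaving out 1 array in turn gave 0 to 252 higher and 0 to 45 lower. With the replicate number as a block, 0 and 0 passed in limma (2169 and 1219 at an unadjusted p under 0.05). Deviations of same-numbered arrays from their group means correlated across genes at -0.0045, 0.0075 and 0.0142. Whether same-numbered samples share animals is not stated in the labels, and these correlations cannot settle it. Other settings stayed within 1.5 times: all single-symbol probe sets 348 and 162, the mean of a gene's probe sets 528 and 218, quantile normalization 431 and 171, array weights 566 and 230. Centring each array on its median moved the median of all genes by -0.17 and gave 320 and 200, so 61.5% of calls were higher instead of 71.3%. None of the 582 changed sign under any of the 16 alternatives, of which the filter covered 384; since they were chosen on the same arrays, this is no sign of stability. In all 8 fits other than the block, the filter and those without an array, 74 genes passed, 64 higher and 10 lower, Aire, Fezf2, Hdc, Prss16 and Cd83 among them. The medians of 9 lists changed sign under some alternative: autophagy (0.05, and -0.12 after centring), Notch (-0.01, and 0.02 after quantile normalization), Wnt and Bmp (0.22, and -0.07 after the filter), dendritic cell (0.28, and -0.34 after the filter), Aire-interacting, TNF receptor, costimulatory, endothelial and immediate early genes. Values within the range of the control probe sets have no firm fold.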

Other observations

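Several groups of genes outside the lists were also higher in mTEC; they were singled out after their values were seen, so no test of a group is given. Among hormone genes, Pomc, the precursor of corticotropin, had levels of 5466 in mTEC and 510 in cTEC, a difference of 3.42 ± 0.35. Cga, the shared chain of pituitary hormones, differed by 5.39 ± 0.70, the gut hormone Sct by 4.36 ± 0.41 and the bone hormone Fgf23 by 4.60 ± 0.77, from cTEC levels of 18.0, 53.5 and 67.2. Embryonic globins were higher too, with Hba-x at 6.44 ± 0.57 and Hbb-y at 6.11 ± 1.03, although the adult globin gene Hba-a1 did not pass. Hbb-y read 506, 3923 and 8092 on the mTEC arrays and 27.3, 54.6 and 32.5 on the cTEC arrays, so its mTEC readings spread widely. Hair follicle keratins followed the epidermal ones, with Krt73 at 5.77 ± 0.77, Krt82 at 4.54 ± 0.85, Krt71 at 3.76 ± 0.51 and Krt25 at 3.69 ± 0.57. The defensin Defb6 differed by 3.60 ± 0.67, and the B cell chemokine Cxcl13, read at 7693, 5936 and 8145 against 558, 655 and 338, by 3.85 ± 0.41. All of these passed the threshold in limma except Hba-a1.

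Genes called in 1 direction lay next to each other more often than uncalled genes lay next to them, though most had no such neighbour. Of 415 higher genes, 57 (13.73%) had a higher gene as the measured gene just before or after on the chromosome, against 4.28% of 17565 uncalled genes. Likewise 13 of 166 lower genes (7.83%) had a lower neighbour, against 1.79% of uncalled genes. The 57 fell into 27 runs, the longest being Sult1e1, Csn1s1, Csn2 and Csn1s2a. Other runs were Omt2a, Omt2b and Gsta2 on chromosome 9, Flg and Hrnr on 3, Mucl1 and Mucl2 on 15, Saa1 and Saa2 on 7, Prg2 and Prg3 on 2, Retnlb and Retnla on 16, and Alox12e and Alox15 on 11. Many of these neighbours are related copies whose probe sets may bind each other's transcripts, and how much of the clustering that accounts for was not tested. Fezf2 and Cadps on chromosome 14 belong to different protein families.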
